A study of Mus musculus with 6 samples.

Results

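Notch receptors, their ligands, the nuclear partner Rbpj and target genes of the pathway were followed across 6 microarrays of mouse keratinocytes, which form the epidermis, grown in culture. The set held 10 genes of the 19938 tested: the receptors Notch1, Notch2 and Notch3, the ligands Jag1, Jag2 and Dll1, the DNA-binding factor Rbpj, and the targets Hes1, Hey1 and Heyl. Each gene was taken by its symbol in the platform annotation, from its brightest probe set with a single symbol, and all 10 were found. Only Rbpj had a further probe set, and its value is given with that gene.

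The cells came from skin of C57BL/6 mice late in gestation (E18.5), with RNA of 2 mice pooled on each array and 2 arrays in each of 3 groups. The DKO group carried Ovol2flox/- and K14-Cre on an Ovol1-/- background, so that Ovol2 was deleted by a Cre recombinase driven by the keratin 14 promoter of basal keratinocytes. The Ovol1 KO group was Ovol1-/-, and the labels give no Ovol2 allele for it. Control animals carried Ovol2flox/+ together with either Ovol1+/- or K14-Cre, so they too had a conditional Ovol2 allele, and some had a single Ovol1 copy or the Cre transgene. All cultures were grown for 2 to 5 days, then switched to medium with calcium, a differentiation signal for these cells, for a further 3 to 5 days.

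Notch receptors are membrane proteins that are cut when a Jagged or Delta-like ligand on a neighbouring cell binds them. An ADAM protease and then the gamma-secretase complex release the intracellular domain, which joins Rbpj in the nucleus and switches on targets such as the Hes and Hey repressor genes. In the epidermis the pathway is known for driving basal keratinocytes into the spinous layer. Ovol1 and Ovol2 are zinc finger repressors of epithelial cells, and Ovol2 has been reported to bind and repress NOTCH1 in human keratinocytes. The comparisons address how the pathway's transcripts differ when Ovol1 alone, or Ovol1 and Ovol2 together, are missing.

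Several properties of the whole series touch every result below. Ovol1 averaged 10.59 in DKO, 10.38 in Ovol1 KO and 10.06 in control arrays on the log2(intensity + 16) scale. Ovol2 averaged 8.51 in DKO, 9 in Ovol1 KO and 8.47 in control arrays. Whether either probe set lies in the deleted part is not known here, so these levels check no label. Every array is labelled female, yet Xist, the noncoding RNA of X inactivation, lay between 11.97 and 12.26 on both DKO arrays and Ovol1 KO 2, against 4.59 to 4.71 on Ovol1 KO 1 and both control arrays. The Y-linked gene Kdm5d was split the other way, at 7.50 to 7.64 on both DKO arrays and Ovol1 KO 2, against 14.70 on Ovol1 KO 1 and both control arrays, so 3 arrays labelled female had a high level of a Y-linked gene. Between DKO and control, the genotype and this split of sex-linked expression cannot be told apart. Keratinocyte markers were high on all arrays, with Krt5 between 13.68 and 13.94 and Krt14 between 13.61 and 13.67. Of 11 keratinocyte markers, 2 (Krt1 and Krt10) were called higher and 1 (Itgb4) lower in DKO than in control. Of all genes, 0.943% were called higher and 2.26% lower. The median log2 fold change of the 11 markers was 0.16, against 0.02 over all genes. The summed intensity of the 11 was 116000 and 87600 in DKO arrays, 72500 and 74100 in Ovol1 KO arrays, and 70600 and 75000 in control arrays. Most of the higher sum in DKO came from Krt1 and Krt10. Krt1 lay at 14.70 and 12.40 in DKO, and Krt10 at 13.93 and 13.01, against at most 9.48 and 9.77 on the other arrays. In bulk RNA of this kind, a change in the share of a cell type and a change of RNA per cell cannot be told apart.

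Promoter windows of the called genes are shown because Ovol1 and Ovol2 are DNA-binding repressors and the data concern transcript levels of these genes. RefSeq windows of 300 bases (build GRCm38.p6, 250 bases before the annotated start and 50 after) were at hand for 7 of the 10 genes, 9 windows in all, while Hes1, Hey1 and Heyl had no entry. The motifs searched on both strands were CCGTTA (the core of the Ovol site), TGGGAA (the core of the Rbpj site) and CAGGTG (an E-box bound by Zeb and Snail proteins). No motif overlapped another in these windows. The windows of the 2 called genes, Notch1 at chr2:26503773-26504072 and Dll1 at chr17:15375774-15376073 and chr17:15376883-15377182, all on the minus strand, read as follows, with motif matches in capitals.
Notch1: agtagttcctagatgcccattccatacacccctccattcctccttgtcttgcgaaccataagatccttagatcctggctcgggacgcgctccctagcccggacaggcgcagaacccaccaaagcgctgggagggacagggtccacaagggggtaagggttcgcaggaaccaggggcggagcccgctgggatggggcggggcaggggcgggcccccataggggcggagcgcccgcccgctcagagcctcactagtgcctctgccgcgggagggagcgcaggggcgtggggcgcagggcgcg
Dll1, first window: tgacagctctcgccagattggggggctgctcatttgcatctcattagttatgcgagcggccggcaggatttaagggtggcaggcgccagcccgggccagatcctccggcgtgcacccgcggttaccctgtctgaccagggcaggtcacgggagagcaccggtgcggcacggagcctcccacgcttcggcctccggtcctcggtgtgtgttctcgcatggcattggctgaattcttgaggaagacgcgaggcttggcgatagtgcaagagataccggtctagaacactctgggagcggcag
Dll1, second window: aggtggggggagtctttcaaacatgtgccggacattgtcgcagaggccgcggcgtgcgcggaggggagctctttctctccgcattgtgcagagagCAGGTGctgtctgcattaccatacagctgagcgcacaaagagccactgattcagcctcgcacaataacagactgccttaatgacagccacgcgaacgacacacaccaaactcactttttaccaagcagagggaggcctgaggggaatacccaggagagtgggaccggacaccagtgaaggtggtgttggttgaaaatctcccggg

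The Ovol core was in 0 of the 9 windows, against 2.76% of all 32851 promoter windows. The E-box was found in the second Dll1 window, 155 bases before the start, and in 1 window of Rbpj, and it occurs in 20.2% of all windows. The Rbpj core was found in both windows of Rbpj itself and in no window of the other 6 genes, against 25.6% of all windows. GC content ran from 55.7% in the window of Jag1 to 86.0% in that of Jag2, with a median of 52.7% over all windows. A match is only a run of letters, and a missing match says nothing about sites outside these windows.

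In DKO against control keratinocytes, Notch1 and Dll1 rose, and none of the 10 genes fell in the test. The count was 2 higher, 0 lower and 8 not called, against 3.2% of all genes called in either direction, 0.943% higher and 2.26% lower. The median log2 fold change of the 10 genes was 0.23, against 0.02 over all genes. On 8 of the 10 genes the DKO arrays did not overlap the control arrays, 6 above and 2 below, against 44.6% of all genes. A gene was called at a limma adjusted p below 0.05, and every log2 fold change is a difference of log2(intensity + 16) means.

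**Figure D1:**
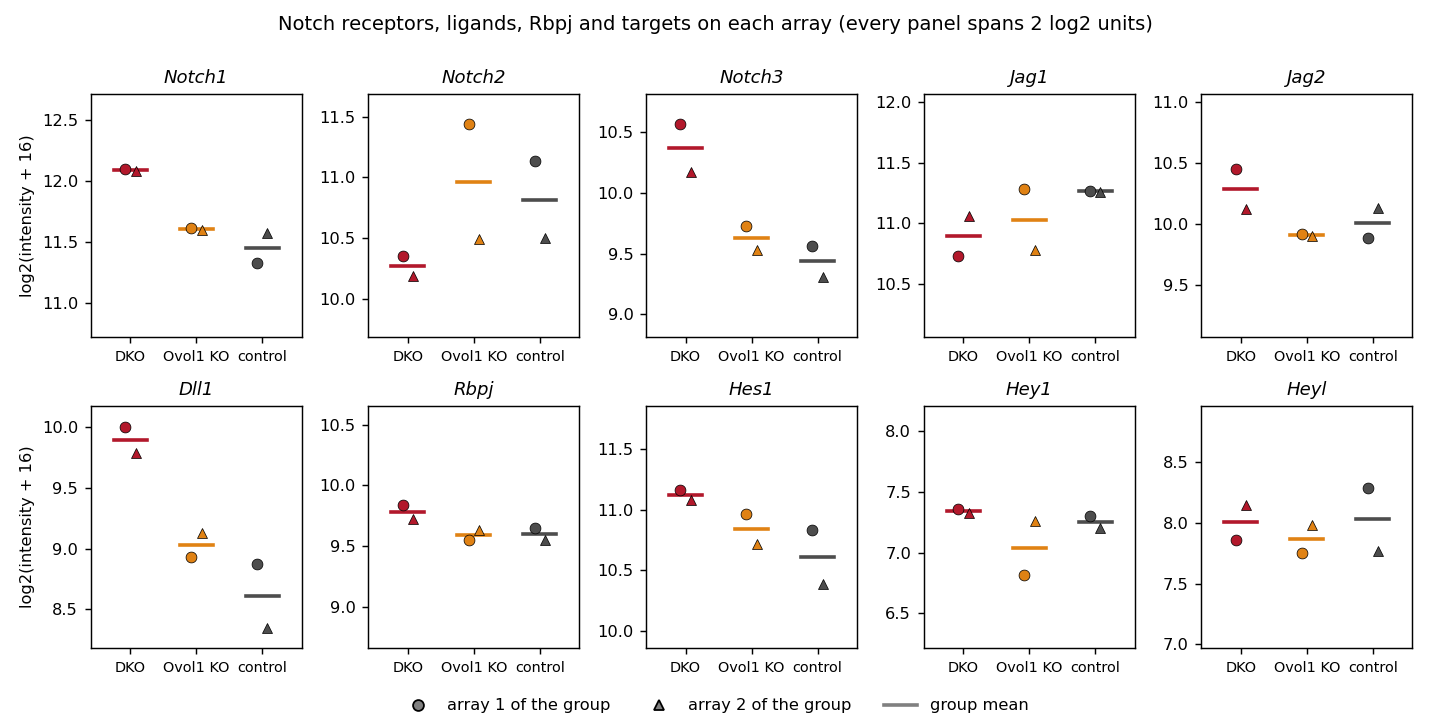
Log2(intensity + 16) of each gene on the 6 arrays (vertical axis), with DKO, Ovol1 KO and control from left to right. Circles and triangles are the 2 arrays of a group and bars are group means. Notch1 lay at 12.1 and 12.08 in DKO, and Dll1 at 10 and 9.79 in DKO, above all other arrays.

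Among the receptors, Notch1, the main receptor of suprabasal differentiation in mouse epidermis, had deposited intensities of 4367 and 4269 in DKO, 3126 and 3088 in Ovol1 KO, and 2643 and 3022 in control. On the log2 scale these were 12.10 and 12.08 in DKO, 11.61 and 11.60 in Ovol1 KO, and 11.33 and 11.57 in control. All 3 groups were separate, with DKO highest and control lowest, although control 2 (11.57) lay close to both Ovol1 KO arrays. The rise in DKO against control was 0.64 (SE 0.13, 95% confidence interval 0.34 to 0.94, adjusted p = 0.048), or 1.56-fold. Of all genes, 4.26% had a larger log2 fold change. The call was lost under 9 of 16 alternatives (the replicate block not counted), among them when either DKO array, either Ovol1 KO array or control 1 was left out (adjusted p 0.086 to 0.22), while the log2 fold change stayed between 0.52 and 0.76.

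Notch3, a receptor of spinous keratinocytes that is also strong in mural cells of blood vessels, lay at 10.57 and 10.17 in DKO, 9.73 and 9.53 in Ovol1 KO, and 9.56 and 9.31 in control. Both DKO arrays were above all others, while Ovol1 KO and control overlapped. The log2 fold change in DKO against control was 0.93 (SE 0.21, interval 0.42 to 1.44, adjusted p = 0.079), which did not pass. Of 9 mural cell markers, limma called 0 in this comparison. An unadjusted p below 0.05 was met by 2888 of all 19938 genes and by 1 of these 9. Their summed intensity was 7570 and 14500 in DKO, 10700 and 11600 in Ovol1 KO, and 14600 and 11700 in control. Most of this sum came from the contractile gene Acta2. It lay at 12.29 and 13.41 in DKO, 12.62 and 13.01 in Ovol1 KO, and 13.12 and 13.00 in control. None of the 9 markers can be placed at 0, as the files hold no detection call, and their part in the Notch3 values was not tested.

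Notch2 lay at 10.35 and 10.19 in DKO, 11.44 and 10.49 in Ovol1 KO, and 11.13 and 10.50 in control. Its values in Ovol1 KO and control were split by array number rather than by genotype, with array 1 higher by 0.94 and 0.63. The log2 fold change in DKO against control was -0.55 (SE 0.34, interval -1.35 to 0.26, adjusted p = 0.56), with -0.23 when control 1 and -0.86 when control 2 was left out. Melanocyte markers were split in a like way, with a summed intensity over 8 genes of 1870 and 1080 in DKO, 6730 and 1500 in Ovol1 KO, and 5120 and 1410 in control. In DKO against control 1 of these 8 markers was called lower and 0 higher, against 2.26% of all genes lower and 0.943% higher. All 8 had a negative log2 fold change, with a median of -0.81 against 0.02 over all genes. The part of melanocytes in the Notch2 values was not tested. Notch4, given to complete the receptors and not among the 10 genes, had a log2 fold change of -0.08 and was not called.

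Among the ligands, Dll1, which is known in human epidermis as a ligand of basal stem cells, had deposited intensities of 1041 and 824.8 in DKO, 488.6 and 548.8 in Ovol1 KO, and 448.9 and 310.0 in control. On the log2 scale these were 10.00 and 9.79 in DKO, 8.93 and 9.13 in Ovol1 KO, and 8.87 and 8.35 in control. The 3 groups were separate in the same order as for Notch1, although Ovol1 KO 1 and control 1 lay close together. The rise in DKO against control was 1.29 (SE 0.23, interval 0.73 to 1.84, adjusted p = 0.038), or 2.44-fold, and 1.27% of all genes had a larger log2 fold change. The call was lost under 8 of 16 alternatives, among them when either DKO array, either Ovol1 KO array or control 2 was left out (adjusted p 0.073 to 0.19), with log2 fold changes between 1.02 and 1.55.

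Jag1, the ligand gene reported as a target of Wnt signalling in hair follicles, lay at 10.73 and 11.06 in DKO, 11.28 and 10.78 in Ovol1 KO, and 11.27 and 11.26 in control. DKO was below control on both arrays, but the Ovol1 KO arrays lay on both sides of DKO 2. The log2 fold change in DKO against control was -0.37 (SE 0.21, interval -0.86 to 0.12, adjusted p = 0.51). Jag2, a ligand of basal keratinocytes, lay at 10.45 and 10.12 in DKO, 9.92 and 9.90 in Ovol1 KO, and 9.88 and 10.13 in control. DKO 2 and control 2 were at nearly the same level, and the log2 fold change was 0.29 (SE 0.19, interval -0.17 to 0.74, adjusted p = 0.61).

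Rbpj varied least of the 10 genes, over a range of 0.30 across the 6 arrays against a median range of 0.52 over all genes. It lay at 9.84 and 9.72 in DKO, 9.55 and 9.63 in Ovol1 KO, and 9.65 and 9.55 in control, and its log2 fold change in DKO against control was 0.18 (SE 0.17, interval -0.23 to 0.59, adjusted p = 0.76). Its second probe set was dim, between 5.29 and 5.82, and differed by 0.03 between the same groups. On the brighter probe set both DKO arrays were above all others.

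Of the targets, Hes1, a repressor that keeps spinous cells from premature differentiation in mouse epidermis, lay at 11.16 and 11.08 in DKO, 10.96 and 10.72 in Ovol1 KO, and 10.83 and 10.39 in control. The DKO arrays were highest, and Ovol1 KO overlapped control. The log2 fold change in DKO against control was 0.51 (SE 0.19, interval 0.06 to 0.97, adjusted p = 0.28), which did not pass. Without control 2 it was 0.29, and without control 1 it was 0.73. Hey1 lay at 7.36 and 7.33 in DKO, 6.82 and 7.26 in Ovol1 KO, and 7.30 and 7.20 in control. Heyl lay at 7.86 and 8.15 in DKO, 7.75 and 7.98 in Ovol1 KO, and 8.29 and 7.77 in control. Their log2 fold changes were 0.10 (SE 0.19, interval -0.35 to 0.55, adjusted p = 0.91) and -0.03 (SE 0.23, interval -0.58 to 0.53, adjusted p = 0.99). Hey1 and Heyl, both bHLH repressor genes, averaged below the median level of all genes (8.21), and the files hold no detection call for them.

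Hey1 and Heyl are also known from blood vessels, as is Notch4. Of 8 endothelial markers, limma called 0 in DKO against control. An unadjusted p below 0.05 was met by 2888 of all 19938 genes and by 2 of these 8. Their summed intensity was 904 and 883 in DKO, 1820 and 1260 in Ovol1 KO, and 2360 and 1230 in control. The VEGF receptor gene Kdr lay at 6.79 and 6.65 in DKO, 9.95 and 8.63 in Ovol1 KO, and 10.49 and 8.51 in control. Pecam1, an endothelial adhesion gene, lay at 6.20 and 5.98 in DKO, 7.61 and 6.78 in Ovol1 KO, and 7.67 and 6.75 in control. Both were lowest in DKO, while the cadherin gene Cdh5 lay between 6.77 and 7.06 on all arrays. Emcn, another of the 8 markers, was highest in DKO, at 5.94 and 5.96. It was dim throughout, as its lowest value was 5.57 and the 10th percentile of all gene values was 6. Over the 8 markers the median log2 fold change in DKO against control was -0.03, with 3 positive and 5 negative. The part of endothelial cells in the Hey1 and Heyl values was not tested.

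In Ovol1 KO against control, 0 of the 10 genes were called, as were 0% of all genes. At an unadjusted p below 0.05 the limma count was 0 of the 10 genes and 162 of all genes, or 0.813%. The log2 fold changes ran from -0.23 for Jag1 to 0.42 for Dll1, with a median of 0.07 against -0.06 over all genes. For Dll1 the interval was -0.14 to 0.98 (SE 0.23, adjusted p = 1), and for Notch1, with a log2 fold change of 0.16, it was -0.14 to 0.45 (SE 0.13, adjusted p = 1). These 2 genes were also the 2 of the 10 whose Ovol1 KO arrays did not overlap the control arrays, against 24.1% of all genes. For Notch3 the log2 fold change was 0.20 (interval -0.31 to 0.70) and for Hes1 it was 0.23 (interval -0.22 to 0.69).

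For DKO the labels give Ovol2flox/- and K14-Cre, and for Ovol1 KO they give no Ovol2 allele. Ovol1 KO 1 also differed from both DKO arrays in Xist and Kdm5d, so genotype and sex-linked expression are partly mixed here. In DKO against Ovol1 KO, 0 of the 10 genes were called, against 2.15% of all genes, 0.657% higher and 1.49% lower. At an unadjusted p below 0.05 limma gave 3 of the 10 genes and 13.3% of all genes. These were Dll1 at 0.87 (SE 0.23, interval 0.31 to 1.42, adjusted p = 0.15), Notch3 at 0.74 (SE 0.21, interval 0.23 to 1.24, adjusted p = 0.18) and Notch1 at 0.48 (SE 0.13, interval 0.18 to 0.78, adjusted p = 0.14). Notch2 had the lowest log2 fold change of the 10, at -0.69 (SE 0.34, interval -1.5 to 0.11, adjusted p = 0.45), and Jag2 stood at 0.38 (SE 0.19, interval -0.08 to 0.83, adjusted p = 0.48). On 8 of the 10 genes the DKO arrays did not overlap the Ovol1 KO arrays, 7 above and 1 below, against 42.2% of all genes. The median was 0.29 for the 10 genes and 0.09 over all genes.

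**Figure D2:**
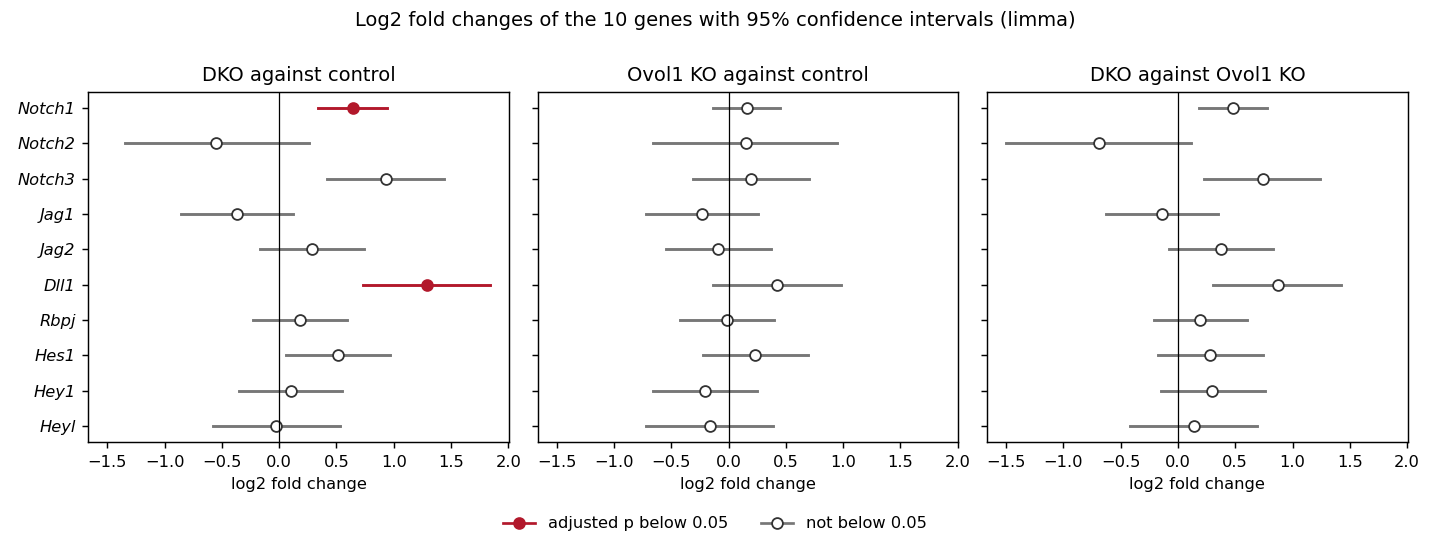
Log2 fold change of each gene (horizontal axis) in the 3 comparisons, with 95% confidence intervals from limma. Filled red points are called at an adjusted p below 0.05. Only Notch1 (0.64) and Dll1 (1.29) in DKO against control are filled, and the intervals of Notch1, Notch3 and Dll1 lie above 0 in both comparisons with DKO.

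The 3 comparisons share arrays, so they are not independent of each other. Over the 3 groups, 2 of the 10 genes (Notch1 and Dll1) had all DKO arrays above all Ovol1 KO arrays and these above all control arrays, and 0 had the reverse order, against 4.09% of all genes in either order. This ordering was looked at after the values were seen. Among the 3 arrays with high Xist, Notch1 averaged 12.09 in DKO against 11.60 in Ovol1 KO 2, Notch3 averaged 10.37 against 9.53, and Dll1 averaged 9.90 against 9.13. These differences of 0.49, 0.84 and 0.76 rest on a single Ovol1 KO array and share their arrays with the differences over all arrays. The fit of DKO against Ovol1 KO without Ovol1 KO 1 gave the same values. It left 1 array in the Ovol1 KO group, so no spread within that group stands behind them. For Notch2 the difference within these arrays was -0.22, and for Jag1 it was 0.11, which has the opposite sign to the difference over all arrays. With the Xist level as a covariate, Notch1 stood at 0.65 (adjusted p = 0.72) and Dll1 at 1.08 (adjusted p = 0.75) in DKO against control, and 8 genes of all those tested were called. That covariate rests on Ovol1 KO 1 and Ovol1 KO 2, as Xist hardly varied within the other groups.

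**Figure D3:**
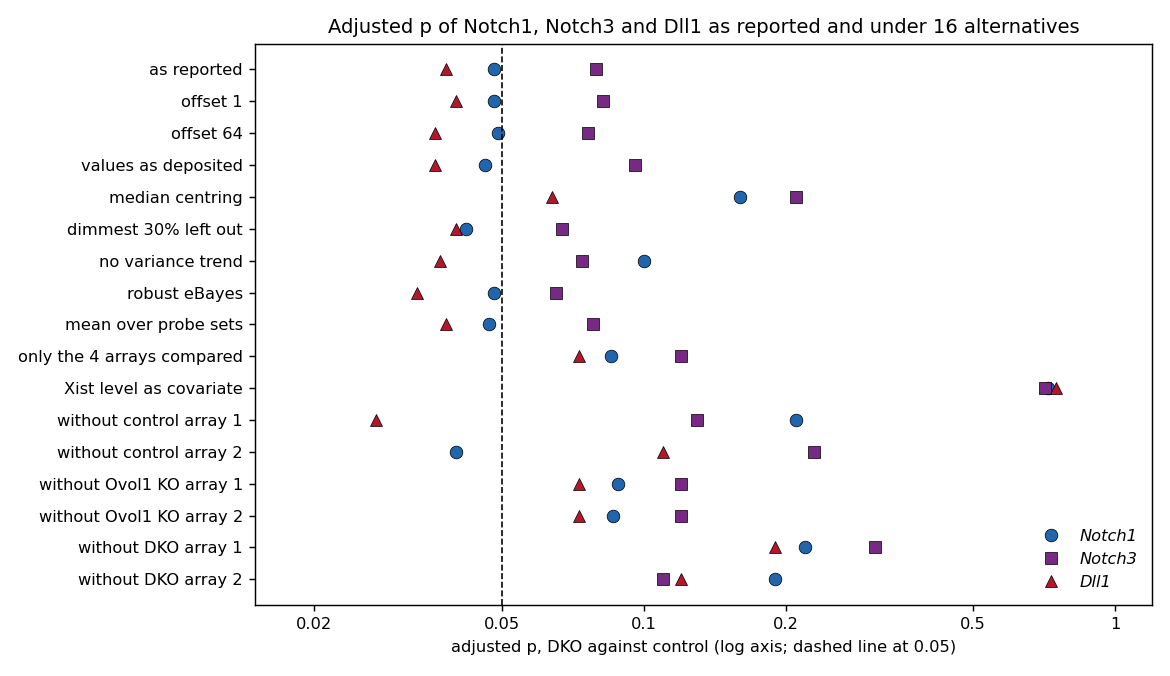
Adjusted p (horizontal log axis, dashed line at 0.05) of Notch1, Notch3 and Dll1 in DKO against control, as reported and under 16 alternatives (rows), the replicate block not drawn. Notch1 was below 0.05 in 7 of the 16, Dll1 in 8 and Notch3 in 0, and all 3 were highest with the Xist level as a covariate.

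The spread between arrays of a group differed among the genes. Notch1 differed by at most 0.02 between the 2 DKO arrays and between the 2 Ovol1 KO arrays, and by 0.25 between the control arrays. Notch2 and Notch3 were lower on array 2 in all 3 groups, and so was Hes1. Notch2 differed by -0.16 in DKO, -0.94 in Ovol1 KO and -0.63 in control, and Notch3 by -0.40, -0.20 and -0.26 in the same groups. For Jag1, Jag2, Dll1, Rbpj, Hey1 and Heyl the direction was not the same in all groups. Dll1 had the widest range over the 6 arrays (1.65), followed by Notch3 (1.26) and Notch2 (1.24).

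**Figure D4:**
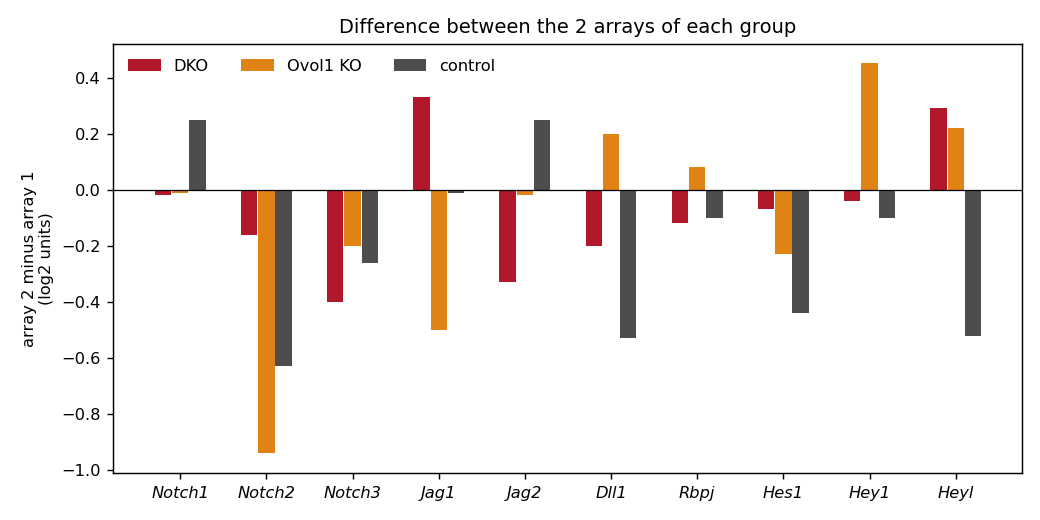
Array 2 minus array 1 (vertical axis, log2 units) for each gene, with DKO, Ovol1 KO and control from left to right. Bars start at 0. Notch2 has the largest differences, of -0.94 in Ovol1 KO and -0.63 in control, and Notch1 the smallest in DKO and Ovol1 KO.

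The other genes of the pathway were read from lists that hold its remaining receptors, ligands, modifying enzymes, proteases, nuclear factors, regulators and downstream keratinocyte genes. Of 68 such genes 63 had a probe set with a single symbol. In DKO against control 3 rose and 1 fell, and 59 were not called, against 0.943% of all genes higher and 2.26% lower. Of the called genes, Krt1, Krt10 and Itgb4 came from the lists of downstream keratinocyte genes and are also keratinocyte markers. Dtx4 was the only call in the other lists. The median log2 fold change of the 63 genes was 0.07, against 0.02 over all genes. The counts were the same in DKO against Ovol1 KO, with the same 4 genes, against 0.657% of all genes higher and 1.49% lower, and with a median of 0.11 against 0.09 over all genes. In Ovol1 KO against control 0 passed in limma (0 also at an unadjusted p below 0.05). No gene was called among the 4 other ligands, the 5 glycosyltransferases that modify Notch, the 4 ubiquitin ligases of ligand endocytosis, the 9 proteases, the 7 cofactors of Rbpj, the 7 corepressors and the 6 other Hes and Hey genes.

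Dtx4, an E3 ubiquitin ligase gene of the Deltex family that acts on Notch trafficking, was the 1 called gene among 9 regulators of turnover. It lay at 9.06 and 9.20 in DKO, 7.26 and 7.91 in Ovol1 KO, and 7.70 and 7.28 in control. Both DKO arrays were above all others. It rose by 1.64 against control (SE 0.26, adjusted p = 0.026) and by 1.55 against Ovol1 KO (SE 0.26, adjusted p = 0.039). In the first comparison its call was lost without either DKO array (adjusted p 0.11 and 0.12), without control 2 (0.054) and with Xist as a covariate (log2 fold change 0.98, adjusted p = 0.73). Against Ovol1 KO it was lost without Ovol1 KO 1 (0.24), without either DKO array (0.14 and 0.17) and with Xist as a covariate (0.27). Its relative Dtx2, named after its values were seen, had a log2 fold change of 0.68 (adjusted p = 0.10).

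Of 5 genes listed as raised by Notch in keratinocytes 3 were measured, and the spinous keratin genes Krt1 and Krt10 rose in DKO. Krt1 lay at 14.70 and 12.40 in DKO, 8.97 and 9.27 in Ovol1 KO, and 9.48 and 9.33 in control. The value on DKO 1 was at the top of the normalized scale, shared with Kdm5d, and with the values as deposited the log2 fold change of Krt1 was 4.50 in place of 4.15. Its call against control was lost with robust eBayes (adjusted p 0.083), with only the 4 arrays compared (0.053), without either Ovol1 KO array (0.054 and 0.052) and with Xist as a covariate (0.68). Krt10 lay at 13.93 and 13.01 in DKO, 9.28 and 9.48 in Ovol1 KO, and 9.77 and 8.89 in control, and of 17 alternatives its call against control was lost with Xist as a covariate (0.30). In DKO against Ovol1 KO both calls were lost without Ovol1 KO 1 (0.20 for Krt1 and 0.055 for Krt10) and with Xist as a covariate (0.24 and 0.07), and that of Krt1 also without Ovol1 KO 2 (0.09) and with robust eBayes (0.085). Ivl, the other measured gene of the list, which encodes involucrin, had a log2 fold change of 0.57 and was not called. Of 8 genes listed as lowered by Notch, Itgb4, an integrin of basal cells, fell by 0.79 (SE 0.13, adjusted p = 0.030) and the other 7 did not pass. The Itgb4 call was lost without either control array (adjusted p 0.059 and 0.072), without either DKO array (0.16 and 0.095), without the variance trend (0.065) and with Xist as a covariate (0.75). Against Ovol1 KO it was -0.77 (adjusted p = 0.040), and that call was lost when any 1 of the DKO or Ovol1 KO arrays was left out (0.075 to 0.28), with median centring (0.074), without the variance trend (0.084) and with Xist as a covariate (0.32). Trp63, the p63 gene that maintains the basal state, and Wnt4 had positive log2 fold changes of 0.75 (adjusted p = 0.061) and 0.89 (adjusted p = 0.28). Itgb1, another integrin gene of this list, had -0.67 (SE 0.16, adjusted p = 0.094). Each of these was named after its values were seen.

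**Figure D5:**
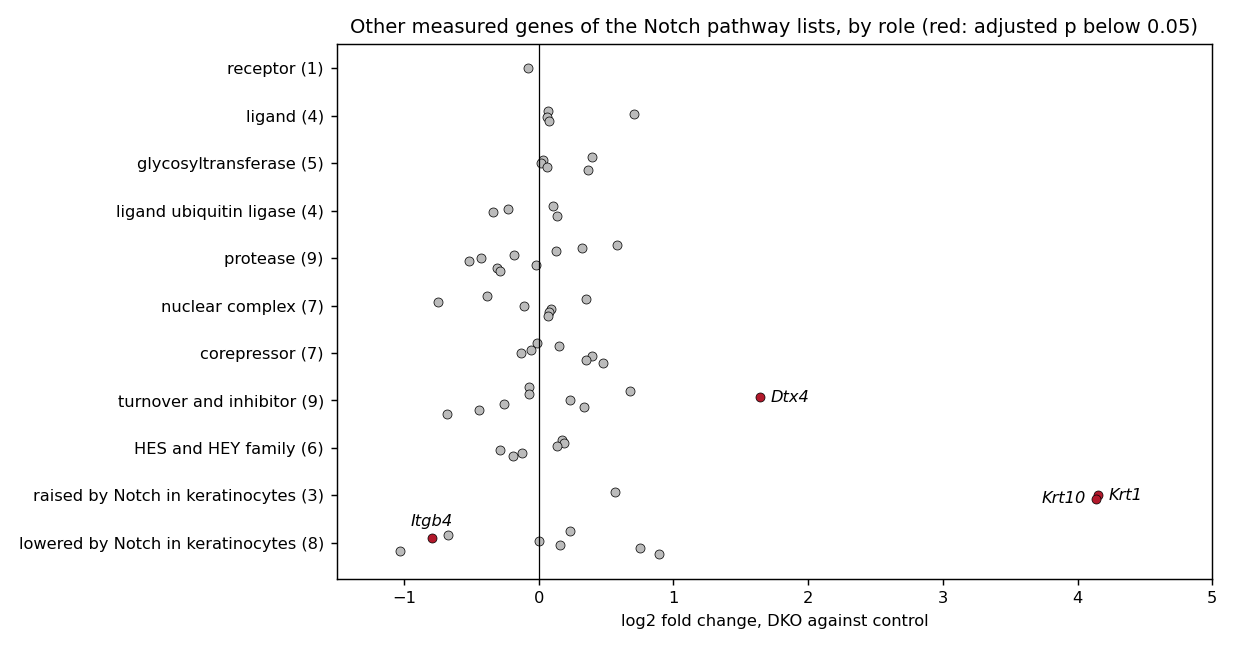
Log2 fold change in DKO against control (horizontal axis) of the 63 other measured pathway genes, in rows by role with the number measured. Red points are called at an adjusted p below 0.05. Krt1 (4.15), Krt10 (4.14) and Dtx4 (1.64) lie to the right and Itgb4 (-0.79) to the left, while the other 59 were not called.

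Further values at the ends of these lists were picked out after they were seen, and none passed. The protease gene Adam10, whose product cuts ligand-bound Notch, had a log2 fold change of 0.58 in DKO against control (SE 0.13, adjusted p = 0.074), and Furin, which matures the receptor, had -0.52 (SE 0.16, adjusted p = 0.17). Dlk2, a Delta-like homologue, had 0.71 (SE 0.18, adjusted p = 0.11). Numbl, a relative of the Notch inhibitor Numb, had -0.68 (SE 0.18, adjusted p = 0.11), and the acetyltransferase gene Kat2b had -0.75 (SE 0.25, adjusted p = 0.22).

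Genes with profiles most like those of the called genes were found by the root mean square distance between mean-centred log2 values over the 6 arrays, leaving out predicted genes and olfactory and vomeronasal receptors. For Notch1 they were Pus3 (0.036), Sdr42e1 (0.042) and Cerk (0.047). For Dll1 they were Ssx2ip (0.087), Hoxa7 (0.106) and Pde8a (0.106). Ssx2ip, for example, lay at 10.55 and 10.36 in DKO, 9.41 and 9.63 in Ovol1 KO, and 9.28 and 9.04 in control. These distances describe these 6 arrays only.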

How the data were processed

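The authors deposited a linear intensity for every probe set on every array. Per the submitters' processing notes, Affymetrix Expression Console 1.1.1 and PLIER 2.0 were named, with no role for either. Of background correction, between-array normalization and filters, no source used here gives an account. The platform annotation pairs 21789 of the 35556 probe sets with 1 symbol, 1621 with several and 12146 with none here. An offset of 16 was added to each intensity before log2, and values were quantile-normalized over all probe sets. The brightest single-symbol probe set stood for each of 19938 genes. Since no detection call exists, low values were not filtered.

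All 6 arrays entered 1 model of group means in limma 3.58.1 (R 4.3.3). Variances were moderated by eBayes with an intensity trend, and Benjamini-Hochberg adjustment covered all genes. With 2 arrays a group, the spread of each gene was pooled over the 3 groups (3 residual and 3.89 prior degrees of freedom). Group SDs are therefore not given for each value, and both arrays are. The labels call the arrays biological replicates. The number of arrays limits the precision. The procedure was tested on simulated data before use, with 200 changed genes in DKO against control. On average it recovered 22.7% of 2-fold and 74% of 4-fold changes, with 3.9 false calls. A gene that was not called may therefore still differ. As alternatives, the offset was set to 1 or 64, quantile normalization was dropped or replaced by median centring, and the dimmest 30% of genes were removed. The trend was dropped, eBayes was made robust, and probe sets were averaged. Fits were also made on the 4 arrays compared, with a replicate block, with Xist as a covariate, and without each array.

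Members, lists and tests were chosen with earlier results of these data known. All 10 members were named. Other pathway genes were named where called, up to 4 a list, and others to complete a list or after their values were seen, as the text states.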

Additional observations from a re-analysis of the deposited data

How the results depend on the processing

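Of the 170 log2 fold changes of the 10 genes under 17 alternatives in DKO against control, 147 kept their sign and side of the threshold, 17 lost a call, 1 gained one and 5 changed sign. In the other 2 comparisons 10 and 4 changed sign, all of uncalled genes. The count of 2 called genes in DKO against control became 1 without the variance trend, and 0 with median centring, with only the 4 arrays compared and with Xist as a covariate. Leaving out single arrays gave 0 to 1, where the lone array of a group was assumed to vary like the other groups. The 4 called pathway genes became 0 with the Xist covariate (also 0 in DKO against Ovol1 KO) and 2 to 3 when an array was left out (0 to 4 in DKO against Ovol1 KO). Of all genes, 639 were called in DKO against control, 8 with the Xist covariate, and 258 to 735 with single arrays left out. In DKO against Ovol1 KO 429 were called, 738 from the 4 arrays alone, 73 with the Xist covariate and 88 to 738 with single arrays left out. In Ovol1 KO against control the range was 0 to 4. The causes were not tested.

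With the replicate number as a block, Notch3 was called in DKO against control (log2 fold change 0.93, adjusted p = 0.026), with 7 further pathway genes and 1069 genes in all. In DKO against Ovol1 KO 805 genes were called. The differences between array 2 and array 1 correlated across genes at 0.687 between Ovol1 KO and control, 0.151 between DKO and control and 0.087 between DKO and Ovol1 KO, and the labels tie the numbers to no shared litter or day.

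Sign changes with the Xist covariate gave Notch2 0.41, Jag1 0.13 and Hey1 -0.35 in DKO against control, Jag1 0.12 in DKO against Ovol1 KO, and Jag1 0.01, Dtx4 -0.22, Krt10 -0.04 and Itgb4 0.11 in Ovol1 KO against control. Rbpj was 0.02 in the last comparison with the values as deposited. With single arrays left out and no change of sign, Jag1 ran from -0.53 to -0.21, Jag2 from 0.12 to 0.45 and Hes1 from 0.29 to 0.73 in DKO against control, Dll1 from 0.15 to 0.68 in Ovol1 KO against control, and Notch2 from -1.16 to -0.22 in DKO against Ovol1 KO. Heyl ran from -0.28 to 0.23 in DKO against control, and from -0.01 to 0.28 in DKO against Ovol1 KO, where Jag1 ran from -0.39 to 0.11. In Ovol1 KO against control the ranges were -0.33 to 0.62 for Notch2, -0.48 to 0.02 for Jag1, -0.22 to 0.04 for Jag2, -0.43 to 0.02 for Hey1, -0.42 to 0.10 for Heyl, -0.06 to 0.04 for Rbpj, -0.22 to 0.42 for Dtx4, -0.39 to 0.49 for Krt10 and -0.14 to 0.11 for Itgb4.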

Other observations

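Nrarp, which encodes a feedback inhibitor of Notch signalling, was picked out after its values were seen. It lay at 11.31 and 10.59 in DKO, 11.33 and 10.33 in Ovol1 KO, and 11.19 and 10.03 in control. Array 1 was higher than array 2 in every group, and the log2 fold change in DKO against control was 0.34 (SE 0.48, limma adjusted p = 0.87). Tslp, a cytokine gene with the lowest log2 fold change of the list of genes lowered by Notch, was picked out in the same way. It lay at 7.75 and 6.04 in DKO, 8.12 and 6.49 in Ovol1 KO, and 8.01 and 7.84 in control, with a log2 fold change of -1.03 in DKO against control (SE 0.65, limma adjusted p = 0.58).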
